A study of Mus musculus with 2 samples.

Results

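The genes described here are 8 mouse enzyme genes of amino acid and hydroxy acid metabolism, measured in kidney RNA of cystic kidney disease and of control, on 1 array each. They were taken from a fixed list of names, drawn up with earlier results of these data known, so that their counts are not independent evidence: Hpd, Hgd and Fah of tyrosine breakdown, Ddc of aromatic amine synthesis, the D-amino acid oxidases Dao and Ddo, the hydroxy acid oxidase Hao2 and the aminotransferase Agxt2. Every probe set that the platform annotation assigns to one of these symbols was taken, which gave 13 probe sets for the 8 genes, among 18193 genes named on the array. The cystic kidney came from inv/inv mice carrying the inv-deltaC::GFP transgene, and the control kidney from +/+ mice carrying the same transgene. Invs encodes inversin, a ciliary protein whose mutation models nephronophthisis, and the transgene encodes it without its C-terminus, so the controls also carried the truncated protein. Both kinds of mice were 4 weeks old by the design text, which speaks of 2 kidneys, and whether an array held RNA of 1 or more animals was not given in the sources used here. Total RNA was the material and biotin the label. There was 1 array per group, so there are no replicates, no test was possible, and the number of arrays limits the precision.

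Tyrosine is broken down in liver and in the proximal tubule of the kidney by a chain of enzymes that opens its aromatic ring and ends in fumarate and acetoacetate. Dao, Ddo and Hao2 are flavin enzymes of the peroxisome that pass electrons to oxygen and release hydrogen peroxide, which catalase removes. Proximal tubule cells are rich in peroxisomes, take up filtered amino acids, and use Ddc to make dopamine from filtered L-DOPA, which acts locally on sodium excretion.

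Values are MAS5 signals, a linear intensity with no physical unit, and are compared between the arrays only within a probe set. A signal was treated as measured at or above the median of its array, 61.9 for the cystic and 55.4 for the control array. A gene was counted as lower or higher at a 2-fold difference. The 2% trimmed mean signal was 181 in the cystic and 178 in the control kidney. The brightest Invs probe set, a check on the mutated gene, had a signal of 15.9 on the cystic array, under its floor, against 118 on the control array. The cystic array is labelled female and the control array carries no label of sex. The female transcript Xist had a signal of 57.4 on the cystic array, under its floor, against 387 on the control array. The Y-linked Eif2s3y had signals of 141.5 and 131.7, Kdm5d of 194.2 and 151.5 and Uty of 197.6 and 205.7 on the cystic and control arrays. These values go against the female label of the cystic array and place Y-linked signal on both. Swapped labels would turn every direction below, and RNA pooled from both sexes would change what an array stands for, and neither was tested. The lower signal of the brightest Invs probe set lies on the array labelled inv/inv, but which part of the transcript it reads was not examined. Its other probe sets were under both floors and give no ratio. They had 22.1 and 54.2 on the cystic array, against 36 and 5.4 on the control array, so their signals went opposite ways. Many kidney enzymes differ between the sexes, and with 1 array per group sex, genotype and animal cannot be told apart in any value below.

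All 8 enzyme genes were measured on both arrays, and all 8 were at least 2-fold lower in the cystic kidney. Among all 12014 measured genes, 454 or 3.78% were at least 2-fold lower and 848 or 7.06% at least 2-fold higher, so that higher genes made up 65.1% of those past the limit. After the arrays were set to a common median, 672 genes were lower and 609 higher, a higher share of 47.5%, and all 8 enzyme genes were again lower. The median log2 ratio, cystic minus control, was -1.33 for the 8 genes, over a range of -1.88 to -1.07, and 0.09 for all measured genes. Of the measured genes, 206 had a lower ratio than that median. The cystic signal was below the control signal in all 10 probe sets of these genes above the floor on both arrays, against 41.5% of the 20721 such probe sets of the whole array. The remaining 3 were under both floors and give no ratio. In RNA of a whole kidney, fewer cells of a type and less RNA per cell cannot be told apart.

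**Figure D1:**
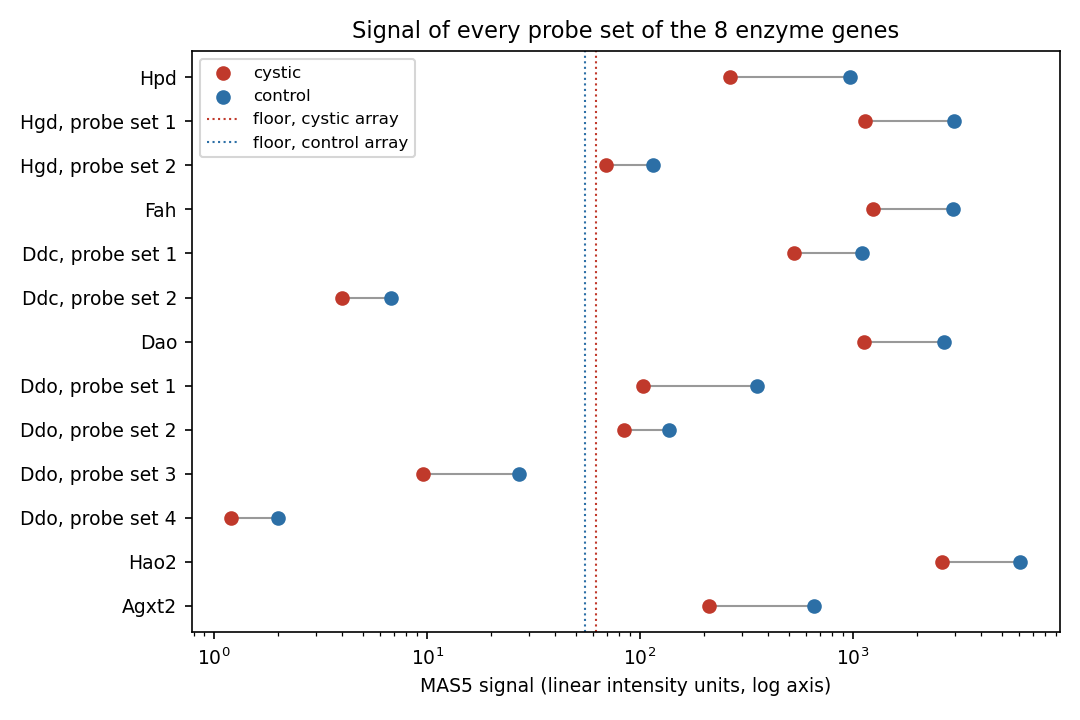
MAS5 signal (log axis) of each of the 13 probe sets in the cystic (red) and control (blue) kidney, 1 array each, with a dotted line at each array's floor. The cystic point lies left of the control point in the 10 rows above both floors, and the 3 probe sets under both floors belong to Ddc and Ddo.

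**Figure D2:**
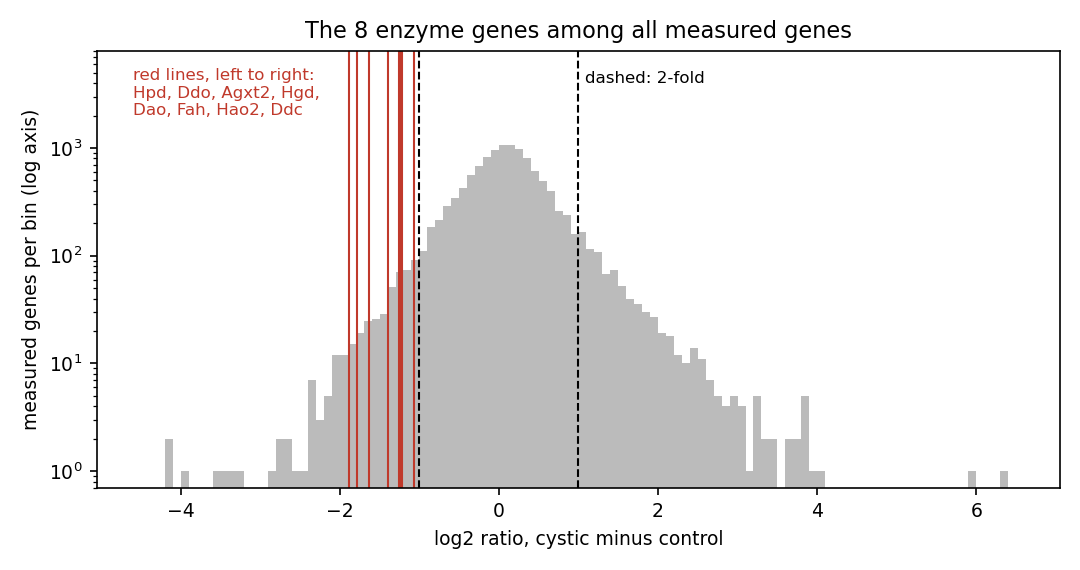
Histogram of the log2 ratio, cystic minus control, of the 12014 measured genes, in bins of equal width with a log count axis. Red lines mark the 8 enzyme genes, which all lie left of the dashed line for a 2-fold lower signal.

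Promoter windows of 3 of the genes are shown because these genes moved the same way: Hpd, which had the lowest ratio, and Agxt2 and Hao2, in which short motifs were matched. Hgd and Ddc also held a match, and their windows are not shown. Each window spans 250 bases before to 50 bases after the annotated start, on the gene's strand, from RefSeq on GRCm38.p6: chr5:123182674-123182973 (minus strand) for Hpd, chr15:10358283-10358582 (plus strand) for Agxt2 and chr3:98893181-98893480 (minus strand) for Hao2. Capitals mark matches to the motifs named after the sequences.
Hpd: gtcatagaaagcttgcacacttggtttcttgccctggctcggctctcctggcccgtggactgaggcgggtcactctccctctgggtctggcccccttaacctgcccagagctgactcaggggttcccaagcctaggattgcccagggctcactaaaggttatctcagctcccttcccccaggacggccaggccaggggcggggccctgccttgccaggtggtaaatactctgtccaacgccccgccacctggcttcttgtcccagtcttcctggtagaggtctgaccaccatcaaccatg
Agxt2: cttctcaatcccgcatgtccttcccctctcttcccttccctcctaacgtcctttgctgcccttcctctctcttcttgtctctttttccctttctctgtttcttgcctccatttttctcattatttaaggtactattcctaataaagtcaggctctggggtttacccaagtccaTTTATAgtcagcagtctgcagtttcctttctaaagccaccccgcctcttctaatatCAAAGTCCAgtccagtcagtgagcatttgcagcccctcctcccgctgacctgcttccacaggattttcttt
Hao2: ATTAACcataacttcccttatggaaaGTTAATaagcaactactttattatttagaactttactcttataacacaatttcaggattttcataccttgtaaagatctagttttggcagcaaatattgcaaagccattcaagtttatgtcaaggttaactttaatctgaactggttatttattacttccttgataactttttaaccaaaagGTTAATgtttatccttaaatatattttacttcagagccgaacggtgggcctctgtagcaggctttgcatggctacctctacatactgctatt
The motifs, searched on both strands, were the AT-rich motif GTTAAT, a palindrome of 2 such motifs with 1 base between them, the nuclear receptor direct repeat with 1 base between its arms, the TATA motif TATAAA and CAAAGNCCA, a form of the HNF4 element that was added after the sequences had been read. No 2 matches overlapped in the printed windows. All 8 genes had a window, 12 in all since some genes have several annotated starts. GTTAAT occurred in Hao2 alone, 1 of the 8 genes, 3 times, beginning 250, 224 and 42 bases before the start. It occurred in 8.24% of all 27025 genes with a window. The Hao2 window had 32.3% GC, against a median of 52.7% over all windows, and the part of base composition in these matches was not tested. CAAAGNCCA occurred in Agxt2 alone, 21 bases before the start shown, and in 2.28% of all genes. Because this motif was chosen from the sequences, that share is no independent comparison. TATAAA occurred in Hgd, Ddc and Agxt2, that is 3 of the 8 genes, and in 15.7% of all genes. The palindrome and the repeat occurred in none of the 12 windows, and in 0.0111% and 0.0481% of all genes. The Hpd window held none of these letters. A match is a description of the sequence, and binding was not measured.

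The tyrosine enzymes were lower at each measured step from Hpd to Fah. Hpd, the dioxygenase that turns hydroxyphenylpyruvate into homogentisate, had a signal of 263.9 in the cystic and 970.8 in the control kidney. The cystic signal was 27.2% of the control signal, a log2 ratio of -1.88 and a 3.68-fold difference, and 55 of the measured genes had a lower ratio. It was the lowest of the 8 genes. Hgd, the dioxygenase that opens the ring of homogentisate and whose loss causes alkaptonuria in humans, was read by 2 probe sets. The brighter had signals of 1133.8 in the cystic and 2985.3 in the control kidney, 2.63-fold lower in the cystic kidney (log2 ratio -1.40). The dimmer had 69.4 in the cystic kidney, just above the floor, and 115.6 in the control kidney, a log2 ratio of -0.74, which does not pass 2-fold. Both Hgd probe sets were lower in the cystic kidney, and they differ in size. Fah, the hydrolase of the last step and the gene of hereditary tyrosinaemia in humans, had 1248.6 in the cystic and 2936 in the control kidney. Its difference was 2.35-fold (log2 ratio -1.23).

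The other genes of tyrosine and phenylalanine breakdown surround these steps. Of 9 measured genes of that list, 5 were at least 2-fold lower, beside 3.78% of all measured genes. None was at least 2-fold higher, and the median log2 ratio of the list was -1.16. Without Hpd, Hgd and Fah 2 of 6 were at least 2-fold lower, with a median of -0.76. Those 2 were Gstz1, the isomerase between Hgd and Fah, with signals of 503.7 in the cystic and 1123.7 in the control kidney (2.23-fold, log2 ratio -1.16), and Pcbd1, which recycles the cofactor tetrahydrobiopterin, with 1767.4 in the cystic and 4359.8 in the control kidney (2.47-fold, log2 ratio -1.30). The aminotransferases Got1 and Got2, which also serve other pathways, had log2 ratios of -0.19 and -0.34. Tat, the liver aminotransferase that feeds Hpd, had signals of 6.0 and 16 in the cystic and control kidneys, under both floors.

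Ddc, the aromatic amino acid decarboxylase, had a signal of 528.3 in the cystic and 1107.6 in the control kidney. Its difference of 2.10-fold (log2 ratio -1.07) was the smallest of the 8 genes, and 395 measured genes had a lower ratio. A further Ddc probe set had 4.0 in the cystic and 6.8 in the control kidney, under both floors, and gives no ratio. The genes around Ddc in amine metabolism had values on both sides of 0, with a median log2 ratio of 0.13 over the 5 others measured. The vesicular amine transporter Slc18a1 was 3.59-fold lower at its brightest probe set, with 174.2 in the cystic and 625 in the control kidney, but had a log2 ratio of 0.15 at its other measured one. Pnmt, the methyltransferase that makes adrenaline, was under the floor in the control kidney, with 130.7 in the cystic and 39.7 in the control kidney, and so at least 2.36-fold higher, a call that is lost with the floor at the 60th percentile. The sulfotransferase Sult1a1 had a log2 ratio of 0.68. Th, which makes L-DOPA, was under both floors, with 35.3 in the cystic and 28.6 in the control kidney. The ratio of Ddc thus stood below those of 4 of the 5 other measured genes of its list.

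Both D-amino acid oxidases were lower in the cystic kidney. Dao, which oxidises neutral D-amino acids such as D-serine, had 1121.6 in the cystic and 2685.5 in the control kidney, a 2.39-fold difference (log2 ratio -1.26). Its only probe set carries the suffix of sets that can bind more than 1 transcript, so the value may include a related one. Ddo, the oxidase of D-aspartate, was read by 4 probe sets. The brightest had 102.9 in the cystic and 355.4 in the control kidney, a 3.45-fold difference (log2 ratio -1.79). The next had 84.1 in the cystic and 136.9 in the control kidney, a log2 ratio of -0.70, which does not pass 2-fold. The remaining Ddo probe sets were under both floors, with 9.6 and 1.2 in the cystic and 27.1 and 2.0 in the control kidney. Both measured Ddo probe sets were lower in the cystic kidney, while the size of the difference depended on the probe set. Srr, the racemase that makes D-serine, had 295.5 in the cystic and 640.6 in the control kidney (2.17-fold, log2 ratio -1.12, and -1.45 at its next probe set). Dglucy, which acts on D-glutamate, had a log2 ratio of -0.84.

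Hao2, the peroxisomal oxidase of longer hydroxy acids, had a signal of 2624.7 in the cystic and 6110.9 in the control kidney. The cystic signal was 43.0% of the control signal, a 2.33-fold difference (log2 ratio -1.22). Its liver relative Hao1, the glycolate oxidase, had 3.0 in the cystic and 5.1 in the control kidney, under both floors. The 8 measured genes of peroxisomal oxidation and hydrogen peroxide had a median log2 ratio of -1.14. None was at least 2-fold higher and, beside 3.78% of all measured genes, 5 were at least 2-fold lower. Apart from Dao, Ddo and Hao2, these were Acox2, the oxidase of branched-chain acyl-CoA and bile acid intermediates, with 290 in the cystic and 1155.6 in the control kidney (3.98-fold), and Pipox, the oxidase of sarcosine and pipecolic acid, with 759.7 in the cystic and 1574.1 in the control kidney (2.07-fold). Catalase, Cat, had 1912.7 in the cystic and 3780.4 in the control kidney, a log2 ratio of -0.98 that stays short of 2-fold, and -1.19 at its next probe set. Acox3 had a log2 ratio of -0.81. Urate oxidase, Uox, had 39.6 in the cystic and 56 in the control kidney, at the floor, and no direction is read from it. The peroxins, which build peroxisomes and import their enzymes, had a median log2 ratio of -0.46. Of 13 measured, 12 were below 0, beside 5059 of all 12014 measured genes. None of the peroxins was past 2-fold in either direction. Their highest were Pex26 at 0.16 and Pex19 at -0.27, and Pex19 had 0.19 at its next probe set. At the brightest probe sets the 3 peroxisomal oxidases had lower ratios than the 13 measured peroxins, the lowest of which was Pex16 at -0.78. At the next probe sets this did not hold, with Ddo at -0.70, Pex11a at -0.82 and Pex16 at 0.12.

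Agxt2, a mitochondrial aminotransferase that uses glyoxylate and also degrades methylated arginines and beta-aminoisobutyrate, had 211.5 in the cystic and 654.4 in the control kidney. The difference was 3.09-fold (log2 ratio -1.63), and 102 measured genes had a lower ratio. Agxt, the peroxisomal aminotransferase of liver, had 24.8 in the cystic and 38.1 in the control kidney, under both floors. Of the 4 other measured genes of glyoxylate handling, Grhpr, the glyoxylate reductase, was 2.26-fold lower, with 849.6 in the cystic and 1922.3 in the control kidney, and the highest were Ldha at -0.18 and Prodh2 at -0.24. In the list of methylarginine and beta-alanine breakdown, 4 of 7 measured genes were lower and 1 was higher. Among all measured genes the shares were 3.78% and 7.06%. Beside Agxt2 the lower ones were Abat, the aminotransferase of beta-alanine, with a log2 ratio of -1.56, Upb1, the beta-ureidopropionase, with -1.34, and Aldh6a1, the semialdehyde dehydrogenase, with -1.24. The methylarginine hydrolases went apart: Ddah2 had 513.9 in the cystic and 155.9 in the control kidney, 3.30-fold higher, while Ddah1 had 1588.5 in the cystic and 3163.4 in the control kidney, a log2 ratio of -0.99. Dpyd, of pyrimidine breakdown, had -0.87.

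Ordered by log2 ratio, the 8 genes ran Hpd, Ddo, Agxt2, Hgd, Dao, Fah, Hao2 and Ddc. No neighbours in this order were more than 0.23 apart, and that widest gap lay between Agxt2 and Hgd. The pooled SD of log2 ratios between probe sets of the same gene was 0.29 over 4694 genes, so no neighbours were further apart than this technical spread. From Hpd to Ddc the ratios differed by 0.81. The measured probe sets of Ddo, at -1.79 and -0.70, and of Hgd, at -1.40 and -0.74, lay further apart than the pooled SD. At their next probe sets both genes had higher ratios than Ddc, so the order depends on the probe set. The spread between probe sets comes from the same RNA and says nothing of differences between animals. With quantile normalization and with loess Ddo had the lowest ratio in place of Hpd, at -1.93 in both.

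**Figure D3:**
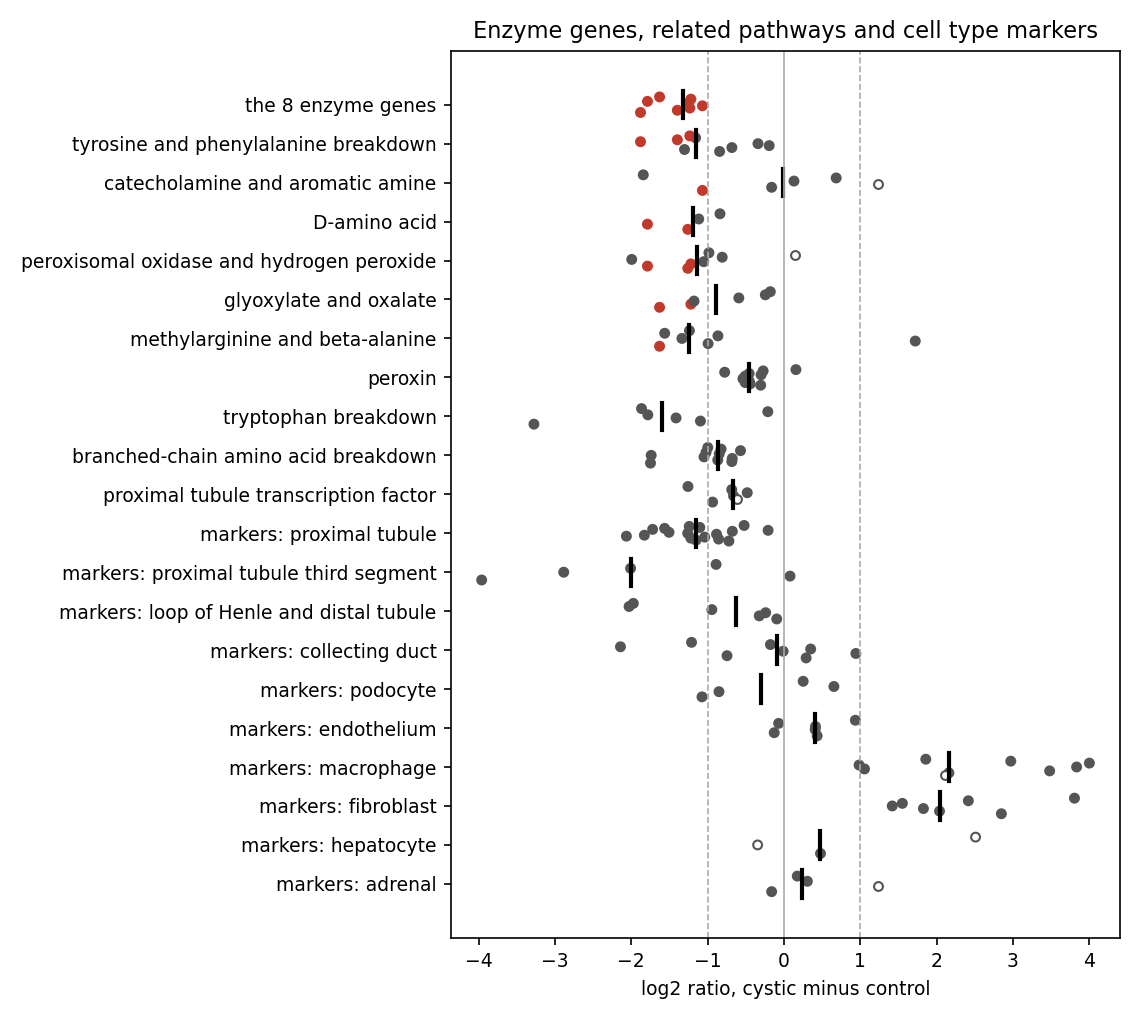
Log2 ratio, cystic minus control, of each measured gene of the 8 enzyme genes, of related pathways and of cell type markers, with the enzyme genes in red, open circles for values limited by the floor on 1 array and a black bar at each median. The enzyme genes (median -1.33) lie beside the proximal tubule markers (median -1.15), while macrophage and fibroblast markers lie above 0.

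Markers of the proximal tubule, where these enzymes are known to be made, were also lower. Of 17 measured markers 11 were at least 2-fold lower, beside 3.78% of all measured genes, and none was higher. The markers had a median log2 ratio of -1.15. The median of the 8 enzyme genes differed from it by -0.18, and whether the lists differ could not be tested. The summed marker signal was 47317 in the cystic and 91416 in the control kidney. Such sums join probe sets of unequal brightness, are led by the brightest, and only describe the arrays. The lowest markers were the organic anion transporters Slc22a6 (-2.06) and Slc22a8 (-1.83), and the highest were Kap (-0.21), an abundant androgen-regulated protein, and Slc27a2 (-0.52). Of 5 markers of the third segment, Slc7a13 (-3.96) and Slc22a7 (-2.89) were the lowest, and Slc5a1 (0.08) and Atp11a (-0.89) the highest. In the other direction, 8 of 9 macrophage markers were at least 2-fold higher, beside 7.06% of all measured genes. The 9 markers had a summed signal of 9730 in the cystic and 2128 in the control kidney. The ratios ran from Csf1r (0.98) and C1qb (1.06, and 2.85 at its next probe set) to C1qc (3.83) and Lyz2 (4.00). All 7 fibroblast markers were at least 2-fold higher, beside the same 7.06%, with a summed signal of 25383 in the cystic and 5792 in the control kidney. They ran from Dcn (1.42) and Pdgfrb (1.55) to Col1a1 (2.85, and 1.57 at its next probe set) and Tagln (3.81). No marker of these lists was at a signal of 0. Their part in the lower enzyme signals was not tested.

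The remaining nephron and vessel markers were less uniform. The loop of Henle and distal tubule had a median log2 ratio of -0.63 over 6 markers, from Calb1 (-2.03) and Pvalb (-1.97) to Kcnj1 (-0.24) and Umod (-0.09). The collecting duct had -0.09 over 8 markers, from Slc4a1 (-2.14) and Slc26a4 (-1.21) to Hsd11b2 (0.35) and Scnn1g (0.94). Podocytes had -0.30 over 4, from Nphs1 (-1.07) and Podxl (-0.85, and -0.13 at its next probe set) to Wt1 (0.25) and Synpo (0.65). Endothelium had 0.41 over 6, from Kdr (-0.13) and Emcn (-0.07) to Pecam1 (0.43) and Eng (0.94). Hpd, Hgd and Fah are also liver enzymes, and 5 of 8 hepatocyte markers were under both floors. Albumin, Alb, had 91.7 in the cystic and 65.8 in the control kidney, and Apoa2 had 42.0 in the cystic and 78.6 in the control kidney. Fgb, which injured tubules can also express, had 315.7 in the cystic and 10 in the control kidney. Of 8 adrenal markers 4 were under both floors, and beside Pnmt the measured ones were Dbh (-0.16), Cyp21a1 (0.17) and Star (0.31).

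**Figure D4:**
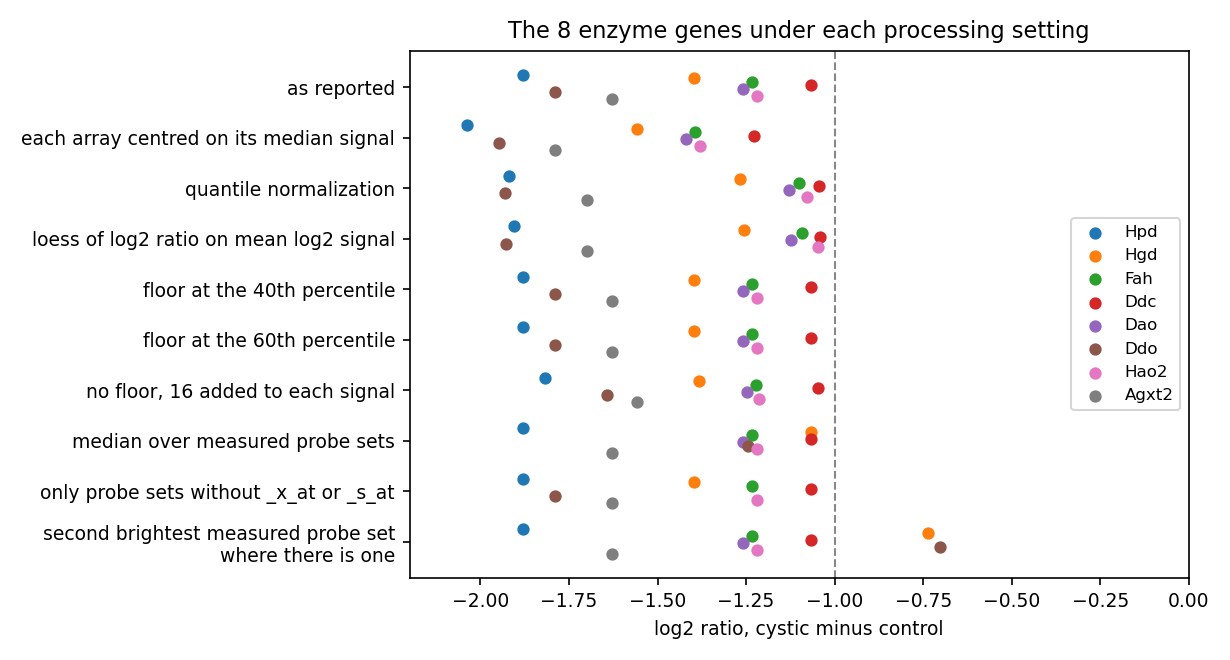
Log2 ratio, cystic minus control, of the 8 enzyme genes as reported and under each other way of scaling, flooring or choosing probe sets, with a dashed line at a 2-fold lower signal. All points lie left of the line except Hgd and Ddo at their next brightest probe sets, at -0.74 and -0.70, and Dao has no point where shared probe sets were left out.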

How the data were processed

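Total RNA of whole kidney was measured on 2 arrays, 1 cystic and 1 control, and the sample titles gave the groups. The deposited values are an intensity, a linear signal made with MAS5 per the submitters' processing notes, with version and scaling target not given in the sources used here. Array scaling was kept as deposited. Of 45101 probe sets 64 control sets were left out. Gene names came from the annotation of the platform and were brought up to date by gene identifier in a RefSeq table of GRCm38.p6, in which 34741 probe sets were found. Of the 45037 kept, 34945 named 1 gene, 932 several and 9160 none. The floor was each array's median signal; a signal under it was raised to it, and such a ratio is a bound. Each gene was read from its brightest probe set by mean log2 signal after flooring.

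The lists hold genes of related pathways and cell type markers, and 14 listed genes were named by no probe set and not analysed here. The 8 genes and the lists were chosen with earlier results of these data known, so their counts are not independent evidence. Named were all 8 genes, pathway genes past 2-fold with the 2 furthest the other way, and the 2 lowest and highest markers; others, such as Cat, Ddah1, Pex16 and genes under both floors, were chosen after their values were seen. With 1 array per group no p-value was computed. The alternatives were median centring, quantile and loess scaling, other floors, other probe sets and a limit of 1.5-fold. Steps ran in Python 3.11.15 with pandas 2.3.3 and statsmodels 0.14.6 and were tested on simulated data.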

Additional observations from a re-analysis of the deposited data

How the results depend on the processing

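All 8 enzyme genes were at least 2-fold lower under every scaling and floor tried, with the median over probe sets and at 1.5-fold, and 7 of 7 without shared probe sets, where Dao drops out. Taking the next brightest measured probe set, an alternative chosen after seeing the data, left 6 of 8 past 2-fold, without Hgd and Ddo. With it 3.87% of all measured genes were lower. The median of the 8 genes ranged from -1.49 with median centring to -1.19 with loess, and none was higher under any alternative. Median centring moved the median of all measured genes to -0.07. With it 5.59% of measured genes were lower, the largest share at 2-fold, and the smallest was 3.54% with the median over probe sets. At 1.5-fold, 1297 genes or 10.8% were lower and 1970 higher, against 454 and 848 at 2-fold. The median of the glyoxylate list was -0.88 as reported, -0.59 with the floor at the 40th percentile and -0.49 with no floor, and that of the tryptophan list -1.60 as reported and -1.05 with no floor, since dim genes then enter. Signals near the floor limit the Ddo, the dimmer Hgd and the Afmid values. No paired analysis was possible because each group has 1 array, and no replicate could be left out.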

Other observations

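Of 6 measured genes of tryptophan breakdown 5 were at least 2-fold lower in the cystic kidney, beside 3.78% of all measured genes, with a median log2 ratio of -1.60. Afmid, the kynurenine formamidase, had 67.3 in the cystic kidney, just above the floor, and 651.7 in the control kidney. Its log2 ratio was -3.28, and -1.71 at its next probe set. Aadat, an aminotransferase of kynurenine and aminoadipate, had 1338.8 in the cystic and 4879 in the control kidney (-1.87). Haao, Kynu and Kmo, enzymes further along the kynurenine route, had log2 ratios of -1.78, -1.41 and -1.09, and Qprt, which leads on to NAD, had -0.21. All 11 genes of branched-chain amino acid breakdown had ratios below 0, beside 5059 of all 12014 measured genes, with a median of -0.87. At least 2-fold lower were 4 of them, beside 3.78% of all measured genes: Bcat1 (-1.75), Ivd (-1.74), Dbt (-1.05) and Mccc2 (-1.02). With median centring 7 of the 11 passed 2-fold, beside 5.59% of all measured genes. The highest of that list were Acadsb (-0.57) and Bckdhb (-0.68).

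Of 6 measured transcription factors and coactivators of the proximal tubule, 1 was at least 2-fold lower, beside 3.78% of all measured genes. The median log2 ratio of the 6 was -0.67. The count was 2 of 6 with median centring, with the median over probe sets, without shared probe sets and at the next brightest probe set. The gene lower as reported was Nr1h4, the bile acid receptor, with 247.5 in the cystic and 591.7 in the control kidney (-1.26). Hnf4a, a nuclear receptor that drives tubular and liver genes, had 1861.6 in the cystic and 3559.4 in the control kidney, a log2 ratio of -0.94, and -1.25 at its next probe set. Ppargc1a, a coactivator of mitochondrial genes, had -0.48, and Hnf4g was under the floor in the cystic kidney, with 55.2 in the cystic and 95 in the control kidney.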
